A study of Homo sapiens with 4 samples.

Results

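Proteins and RNAs cross the nuclear envelope through the nuclear pore complex, a ring-shaped assembly of nucleoporins. Its outer rings are built from the Y complex, its inner ring from a second scaffold, and its channel is filled by nucleoporins with phenylalanine-glycine repeats. Importins carry cargo into the nucleus and exportins carry it out, and the small GTPase RAN sets the direction, since RANGAP1 makes it hydrolyse GTP in the cytoplasm. SMAD proteins, which relay the TGF-β signal, are among the cargoes that enter the nucleus by this route.

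The genes described here were chosen by name from the tables of LX-2 cells, an established line of human hepatic stellate cells. Taken were all gene names made of NUP, IPO, XPO or TNPO followed by a digit or T, those that begin with KPNA or KPNB, and TPR, RAN, RANBP2, RANGAP1, NDC1, POM121 and SEH1L. This gave 96 cytidine positions in 35 genes, out of 17862 positions in 6112 genes. One of the 35, NUP153-AS1, is a long noncoding RNA gene named for the nucleoporin gene it lies opposite, and the other 34 code for proteins. RefSeq holds 54 protein-coding genes that fit the naming rule, and 20 of them, among them RANBP2, NUP214, NUP153, NDC1 and KPNA2, had no listed position in the tables used here.

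The treated cells had received recombinant human TGF-β1 at 5 ng/ml for 24 h (2 libraries), and the control cells were untreated (2 libraries). All libraries carry the wild-type genotype label, came from the same cell line and were made from polyadenylated RNA treated with sodium borohydride, which reduces N4-acetylcytidine (ac4C) so that it is misread in reverse transcription. The deposited data are 1 table per group, and the value of a position is what is called here its mismatch difference, in percent. No value per library, read number or depth is given, so nothing below has a replicate error, no test between the groups was possible, and every statement compares the 2 tables. No library is labelled as lacking the borohydride treatment, and a listed position is a C mismatch that may or may not be ac4C. A position absent from a table may be unmodified, uncovered or below the authors' limits.

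The coordinates could be checked against sequence where a position fell in a RefSeq window around a gene start. At all 334 such positions the base on the stated strand was a C when the end coordinate was read as the 1-based position, against 59 of 332 when the start coordinate was read so. The positions below are therefore given by their end coordinate on hg38. Of 10 genes that mark stellate cells and myofibroblasts, 6 were listed, COL1A1, COL3A1, ACTA2, TAGLN, VIM and PDGFRB. They had 30 positions after TGF-β1 and 9 in control, a ratio of 3.33, against 1.46 over all genes. COL1A2, LRAT, RGS5 and DES had no position. None of 8 hepatocyte, 5 endothelial and 3 cholangiocyte markers had a position, and of 5 macrophage markers CD68 had 2 after TGF-β1 and 3 in control.

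RANGAP1 is the member whose listed cytidines can be shown in sequence, because 3 of them lie within the first 50 bases of its transcript. NUP153-AS1 has 1 such position when counted from its RefSeq start. Windows were found for 31 of the 35 genes, and these are the only member positions inside one. The 30-base stretches below are from RefSeq (GRCh38.p14), 5′ to 3′ on the transcript strand, with the listed cytidines in capitals.
RANGAP1 (chr22:41286138-41286167, minus strand, 5'UTR): tggtgctggaagCgCgtgaggCcgggagct
NUP153-AS1 (chr6:17707063-17707092, plus strand, noncoding exon): ttctcggaaaggaagagggaCggggaagga

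In RANGAP1 the capitals are bases 33, 35 and 42 of the transcript, at positions 41286155, 41286153 and 41286146. Base 42 had the higher value in both tables, 14.7% after TGF-β1 and 11.0% in control. Base 35 had 4.73% after TGF-β1 and 7.83% in control. These neighbours, 7 bases apart in one 5'UTR, thus stood on opposite sides of equality between the tables. Base 33 was listed after TGF-β1 only, at 5.47%. In NUP153-AS1 the capital is base 41 from the RefSeq start, listed after TGF-β1 only at 4.65%. The deposited annotation starts this gene elsewhere, and from that start the position lies 0.989 kb into the gene. Bases 33 and 35 of RANGAP1 and the NUP153-AS1 cytidine are followed by G, and base 42 of RANGAP1 is followed by C. Over all genes, 61.1% of the 226 listed positions in the first 50 bases are followed by G, against 22.3% of every C in the same part of all windows. The triplet CCG, searched on the transcript strand only, is centred on 12.4% of those listed positions and on 7.34% of every C, and on none of the 4 member positions. All windows here include those of genes with no listed position, so both comparisons differ in genes as well as in cytidines. The part of either in these gaps was not tested.

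Listed positions in nuclear transport genes were little more numerous after TGF-β1 than in control. There were 56 positions in 22 genes after TGF-β1 and 50 positions in 28 genes in control, a ratio of 1.12, while the ratio over all genes was 1.46. Put as a share, 52.8% of the members' positions came from the TGF-β1 table, against 59.3% over all genes. A position listed in both tables counts once for each. The 95% Wilson interval of the members' share was 43.4 to 62.1, which includes the value over all genes. It is for counting error only, treats positions of 1 gene as independent and is not a test. More positions after TGF-β1 were listed in 14 of the 35 genes (40%), against a background of 51.2% of all listed genes. Fewer were listed in 18 (51.4%), against a background of 35.3%, and 3 had equal numbers. That order turned under stricter limits, with 14 genes having more and 12 fewer at a p-value below 0.01, 13 more and 11 fewer at a p-value below 0.001, and 14 more and 8 fewer at a mismatch difference of at least 5%. Listed in control only were 13 genes (37.1%, background 27.3%), and after TGF-β1 only 7 genes (20%, background 28.3%). After TGF-β1 the positions were gathered in fewer genes, with 8 genes holding 3 or more and KPNB1 holding 8. In control 4 genes held 3 and none held more. Positions per gene were also more numerous after TGF-β1 over all genes, with 12076 in 4444 genes, against 8298 in 4384 genes in control. The direction of the count depended on the list length. With the TGF-β1 table shortened to the length of the control table by lowest p-value, the members had 35 positions after TGF-β1 and 50 in control. In coding sequence alone they had 36 after TGF-β1 and 39 in control.

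**Figure D1:**
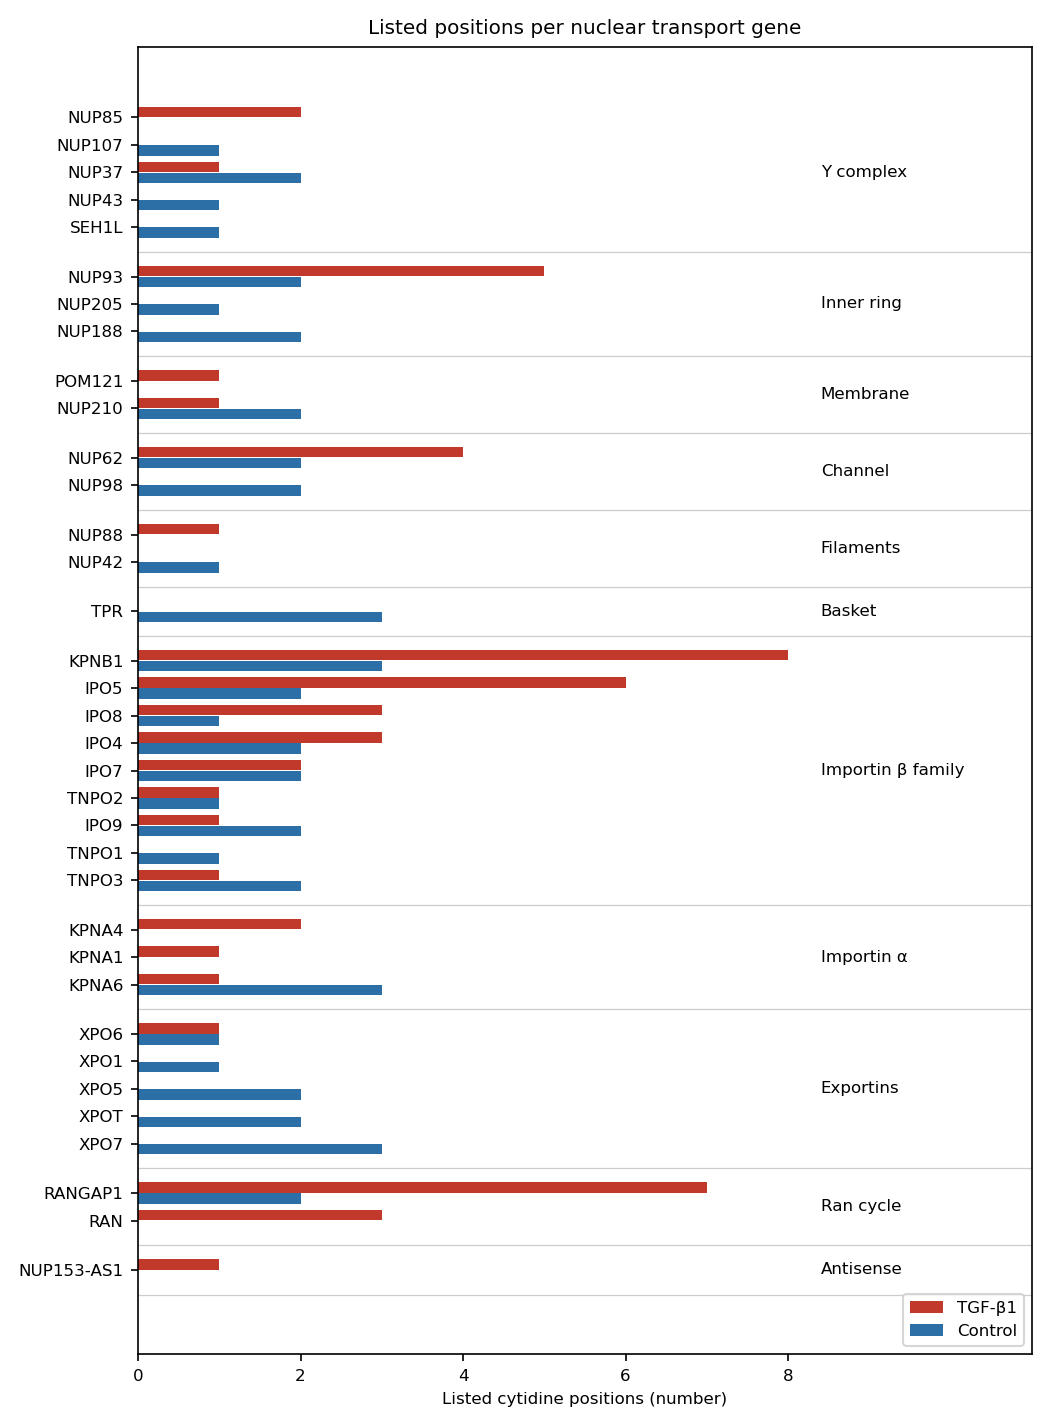
Number of listed cytidine positions (x axis) in each of the 35 genes, grouped by role, after TGF-β1 (red, upper bar) and in control (blue, lower bar). KPNB1, RANGAP1, IPO5 and NUP93 have 5 to 8 positions after TGF-β1, and 4 of the 5 exportin genes have bars in control only.

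The genes of the Y complex, the scaffold of the outer rings, that fit the naming rule had 3 positions after TGF-β1 and 5 in control. SEC13, a Y complex member outside the rule, is not counted here and had 6 after TGF-β1 and 2 in control. NUP85 was the single one of the 5 listed genes within the rule with more after TGF-β1. It had a 5'UTR position at 11.0% and a coding position at 8.17%, neither listed in control. NUP37 had a coding position in both tables (chromosome 12 position 102077493), at 11.2% after TGF-β1 and 6.34% in control. A second NUP37 position, at 15.0%, stood in control only. NUP43 (5.63%), SEH1L (3.14%) and NUP107 (2.43%) each had 1 coding position, in control only. NUP133 and NUP160, the remaining genes placed in this group here, had none.

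The inner ring had 5 positions in each table, but all 5 after TGF-β1 were in NUP93. This scaffold nucleoporin had 2 in control, and both of those were shared. Its coding position at chromosome 16 position 56823785 had 10.6% after TGF-β1 and 9.60% in control. Its 5'UTR position at 56798520 had 1.997% after TGF-β1 and 4.65% in control, one of the few shared positions at least 2-fold lower after TGF-β1 (background 1.66%). The 3 NUP93 positions listed after TGF-β1 only were coding, at 2.13% to 5.61%. NUP188, with 3.33% and 2.28%, and NUP205, with 5.11%, are large scaffold partners of NUP93 and were listed in control only.

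Among the membrane nucleoporins, NUP210 carried the largest difference between the tables of any shared member position. At chromosome 3 position 13323337, in coding sequence, it had 21.0% after TGF-β1 and 6.24% in control, a difference of 14.8 points or 3.36-fold. The authors' p-value there was exactly 0 after TGF-β1 and 0.00601 in control. A second NUP210 position was listed in control only, at 3.74%. POM121, which anchors the pore in the membrane, had a 5'UTR position after TGF-β1 only, at 10.8%. Its near-identical copy POM121C was not listed, and reads of POM121 and POM121C cannot be told apart with certainty.

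In the central channel, NUP62, a phenylalanine-glycine nucleoporin, had 4 positions after TGF-β1, at 2.87% to 9.08%, and 2 in control, at 4.82% and 2.31%. None was shared. The 5'UTR positions of NUP62, 1 in each table, are also annotated to IL4I1. NUP98, another phenylalanine-glycine nucleoporin, had 2 coding positions in control only, at 3.30% and 2.98%. Of the cytoplasmic filament genes, NUP88 had 1 coding position after TGF-β1 only, at 2.56%, and NUP42 had 1 in control only, at 2.72%. In the nuclear basket TPR, its large coiled-coil component, had 3 coding positions in control and none after TGF-β1. These stood at 29.2%, 10.5% and 1.78%, and the first, at chromosome 1 position 186326134, was the highest value of any member in control. Among the pore proteins of these structural groups that fit the naming rule, 5 genes had more and 10 had fewer listed positions. They had 15 positions after TGF-β1 and 20 in control, a ratio of 0.75. Over all genes 51.2% had more and 35.3% had fewer, with a ratio of 1.46. The ratio of 0.75 depends on the rule, which leaves out some pore genes. Among those, SEC13 had 6 positions after TGF-β1 and 2 in control, GLE1 had 2 after TGF-β1 only, and POM121C had none.

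The import receptors of the importin β family held the largest number of positions, 25 after TGF-β1 and 16 in control, a ratio of 1.56. Of 9 listed genes 4 had more, 3 had fewer and 2 had equal numbers. KPNB1 (ENSG00000108424), importin β1, which carries classical cargoes together with importin α, had 8 positions after TGF-β1 and 3 in control. The gene lies at chromosome 17, 47649476 to 47685505, on the plus strand. Its 8 values after TGF-β1 ran from 2.77% to 7.33%, and its 3 values in control were 5.19%, 2.87% and 2.17%. The shared KPNB1 position, 47680094 in coding sequence, had 6.38% after TGF-β1 and 5.19% in control. The others after TGF-β1 were 2 in the 5'UTR, 3 coding and 2 in the 3'UTR. The 2 listed in control only were in the 3'UTR.

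IPO5, which imports ribosomal proteins and other cargoes, had 6 positions after TGF-β1 and 2 in control. Its shared coding position (chromosome 13 position 97982522) had 10.8% after TGF-β1 and 12.0% in control. A position at 98010152 had 16.0% after TGF-β1 and was not listed in control. IPO7 and IPO8 are closely related receptors that have been linked to the import of SMAD proteins. IPO7 had 2 positions in each table, and the shared one (chromosome 11 position 9440460) had 3.63% after TGF-β1 and 1.25% in control, 2.90-fold. IPO8 had 3 coding positions after TGF-β1, at 23.1%, 5.86% and 3.97%, and 1 in control at 1.10%, the lowest value of any member. The 5.86% and 3.97% positions, at 30637027 and 30637028 on chromosome 12, are adjacent bases.

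IPO4 had 3 coding positions after TGF-β1, at 5.50%, 3.42% and 2.66%, and 2 in control, at 15.7% and 3.98%. The lower ones of each table lie 2 bases apart but are different cytidines. IPO9, a histone import receptor, had 6.20% at 1 position after TGF-β1 and 5.63% and 1.93% at 2 others in control. TNPO3, which imports serine-arginine-rich splicing factors, had the highest value of any member after TGF-β1, 27.3% at a 5'UTR position (chromosome 7 position 129054711). The 2 TNPO3 positions in control were other 5'UTR cytidines, at 4.79% and 2.48%. TNPO2 had 7.93% in the 3'UTR after TGF-β1 and 5.38% at a coding position in control. TNPO1, transportin 1, had 1 position in the 3'UTR in control only, at 3.35%.

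Importin α proteins, the adaptors that recognise the classical import signal, had 4 positions after TGF-β1 and 3 in control, none of them shared. KPNA4 had 13.7% in its 3'UTR and 2.50% in coding sequence, and KPNA1 had 8.75%, all after TGF-β1 only. KPNA6 had 2.31% at 1 position after TGF-β1 and 11.4%, 3.06% and 2.23% at 3 others in control. The authors' p-value of the 11.4% position was exactly 0.

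Exportin genes were listed almost wholly in control, with 1 position after TGF-β1 and 9 in control, all of them coding. XPO6, the exportin of actin-profilin complexes, held the single one after TGF-β1, which was shared. At chromosome 16 position 28146101 it had 9.09% after TGF-β1 and 3.34% in control, 2.72-fold. The other 4 genes had no position after TGF-β1. Over all genes 27.3% were listed in control only and 35.3% had fewer positions, with a ratio of 1.46. In control XPO7 had 7.03%, 6.01% and 4.85%, XPO5, the exportin of microRNA precursors, had 7.94% and 4.60%, and XPOT, the exportin of tRNA, had 5.67% and 2.67% at adjacent bases. XPO1, the general exportin for leucine-rich export signals, had 4.38% at 1 position in control. The number in control was lower with stricter limits, 5 at a p-value below 0.01 and 3 at a p-value below 0.001. At either limit 1 was left after TGF-β1. Over all genes the control table went from 8298 positions to 6365 and 4691 at these limits.

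The 2 RAN cycle genes that fit the naming rule, RAN and RANGAP1, went the other way, with 10 positions after TGF-β1 and 2 in control. Genes of the cycle outside the rule are given further below. Among them RANBP1 and RCC1 had more after TGF-β1, and NUTF2 had positions in control only. Over all genes 51.2% had more after TGF-β1, with a ratio of 1.46. RAN (ENSG00000132341) had 3 positions after TGF-β1 and none in control. Its coding positions at 130875920 and 130875921 on chromosome 12 are adjacent bases with 5.17% and 2.98%, and its 3'UTR position had 2.40%. RAN has processed pseudogenes, and how reads shared with them were counted is not given in the sources used here. RANGAP1 (ENSG00000100401, chromosome 22, 41244779 to 41286187, minus strand) had 7 positions after TGF-β1 and 2 in control. Apart from the 3 shown in sequence above, they were 3 coding positions at 4.81%, 4.14% and 2.20% and 1 in the 3'UTR at 5.72%, all after TGF-β1 only. With a p-value below 0.001 required, the RAN cycle genes had 5 positions after TGF-β1 and 2 in control. All genes then had 8300 after TGF-β1 and 4691 in control.

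**Figure D2:**
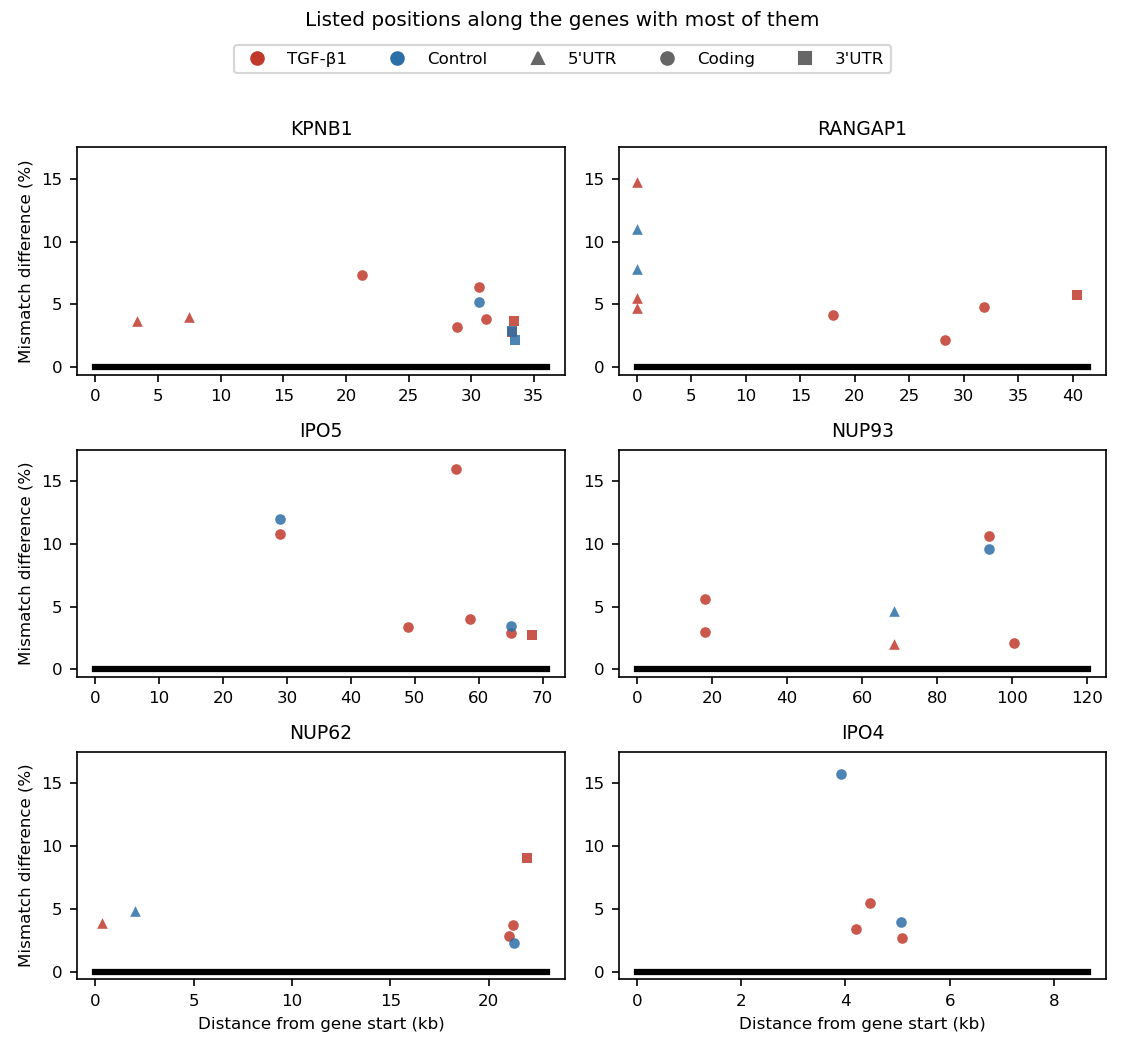
Mismatch difference (y axis, percent) of each listed position against its distance from the gene start (x axis, kb) in the 6 genes with most positions, after TGF-β1 (red) and in control (blue). Triangles are 5'UTR, circles coding and squares 3'UTR positions, and the black bar is the gene span. The RANGAP1 5'UTR cluster lies at the gene start, and most other positions were listed in 1 table only.

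The median mismatch difference of all listed member positions was 4.69% after TGF-β1 and 4.49% in control, while over all genes it was 4.68% after TGF-β1 and 4.05% in control. A value of 10% or more was listed at 11 member positions after TGF-β1 (19.6%, background 18.5%) and at 7 in control (14%, background 12.4%). After TGF-β1 these were in TNPO3, IPO8, NUP210, IPO5 (2 positions), RANGAP1, KPNA4, NUP37, NUP85, POM121 and NUP93. In control they were in TPR (2 positions), IPO4, NUP37, IPO5, KPNA6 and RANGAP1. The authors' p-values had a median of 0.000131 at member positions after TGF-β1 and 0.000267 in control, against 1.05e-05 after TGF-β1 and 0.000346 in control over all genes. A p-value of exactly 0 stood at 6 member positions after TGF-β1 and at 5 in control.

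**Figure D3:**
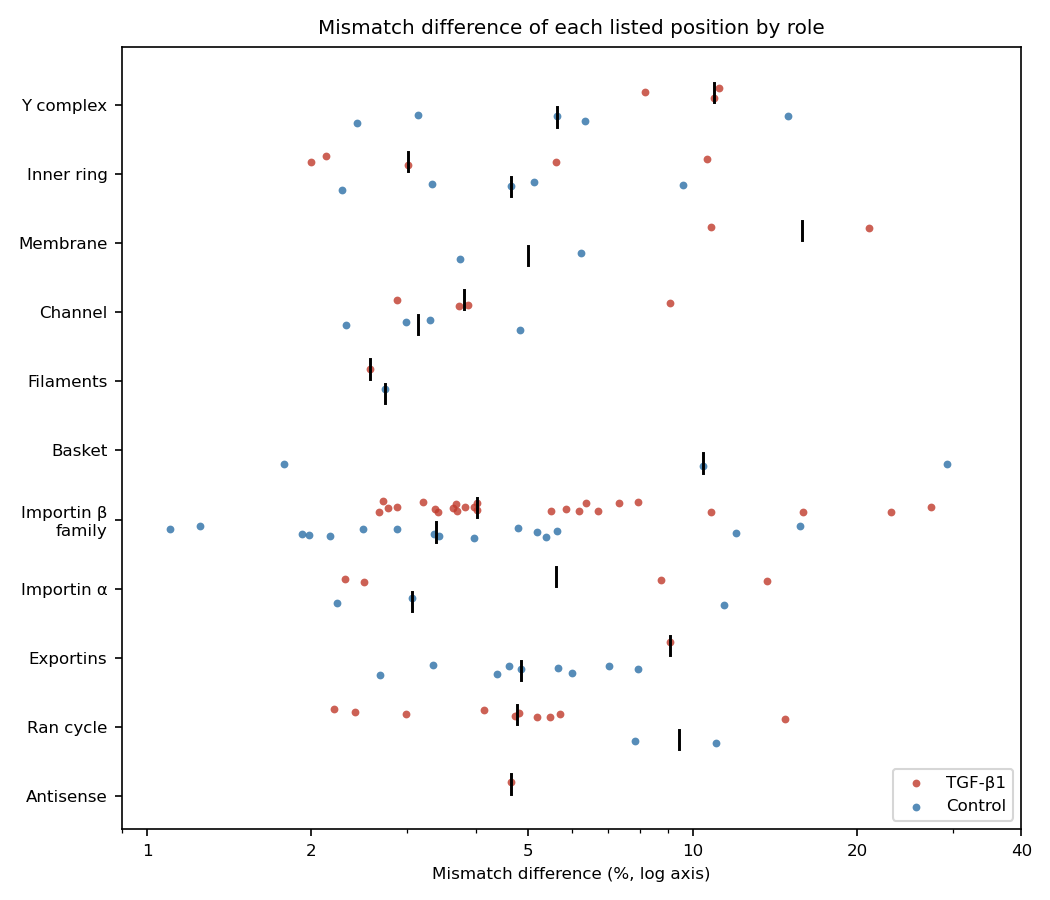
Mismatch difference (x axis, percent, log axis) of every member position by role, after TGF-β1 (red, upper row) and in control (blue, lower row), with the median as a black bar. The importin β family spans 2.66% to 27.3% after TGF-β1 and 1.10% to 15.7% in control, and the only basket points are the 3 control values of TPR.

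Listed in both tables were 10 member positions, which is 17.9% of those after TGF-β1 and 20% of those in control, against 16.9% after TGF-β1 and 24.5% in control over all genes. The value was higher after TGF-β1 at 7 of the 10, in NUP210, XPO6, NUP37, RANGAP1, IPO7, KPNB1 and NUP93, and lower at 3, in RANGAP1, NUP93 and IPO5. The 7 of 10 (70%, 95% Wilson interval 39.7 to 89.2) stand against a background of 78.4% of all shared positions. The median of these 10 was 9.86% after TGF-β1 and 6.29% in control, both above the medians of all shared positions, 5.77% after TGF-β1 and 3.78% in control. The median difference was 1.78 points, against 1.73 over all shared positions, and the median log2 ratio was 0.36, against 0.58. At least 2-fold higher after TGF-β1 were the positions in NUP210, IPO7 and XPO6 (30%, background 27.7%). Of the 3 shared positions in 5'UTRs 1 was higher after TGF-β1, and of the 7 in coding sequence 6 were higher.

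**Figure D4:**
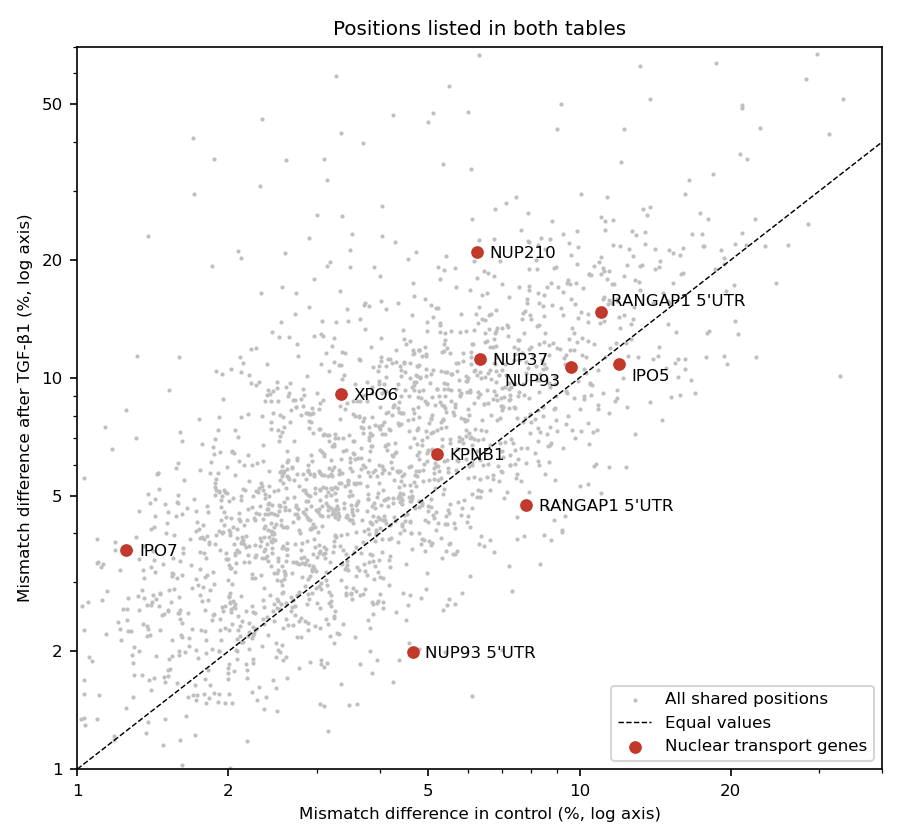
Mismatch difference after TGF-β1 (y axis, percent, log axis) against control (x axis, percent, log axis) for the 1985 positions listed in both tables (grey) and the 10 in nuclear transport genes (red), with equal values on the dashed line. NUP210 lies farthest above the line among the members at 21.0% against 6.24%, and the NUP93 5'UTR position lies farthest below it.

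By place in the transcript, 64.3% of the member positions were coding after TGF-β1 (36 of 56, 95% Wilson interval 51.2 to 75.5) and 78% in control (39 of 50, 64.8 to 87.2). Over all genes these shares were 76.3% after TGF-β1 and 74.7% in control. In 5'UTRs there were 10 member positions after TGF-β1 (17.9%) and 6 in control (12%), against 9.96% after TGF-β1 and 9.87% in control over all genes. In 3'UTRs there were 9 after TGF-β1 (16.1%) and 5 in control (10%), against 12.0% after TGF-β1 and 12.6% in control over all genes. The members' median in 3'UTRs was 5.72% after TGF-β1 and 2.87% in control, against 5.71% after TGF-β1 and 5.15% in control over all genes. In coding sequence it was 4.08% after TGF-β1 and 4.60% in control, against 4.53% after TGF-β1 and 3.87% in control over all genes. Another listed position of the same table lay within 10 bases of 7 member positions after TGF-β1 (12.5%) and of 6 in control (12%), against 14.1% after TGF-β1 and 10.8% in control over all genes. Besides RANGAP1, these were pairs in RAN and IPO8 after TGF-β1 and in XPOT and KPNA6 in control.

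The nuclear transport genes are long, and the count of listed positions moved with gene span in the whole tables. Their median span was 60.5 kb, against 29.2 kb over all listed genes. Over all genes the ratio of positions, TGF-β1 over control, was 1.996 in genes under 20 kb, 1.63 from 20 to 50 kb, 1.15 from 50 to 100 kb and 0.74 from 100 kb. For the members in the same classes it was 2.33, 1.64, 0.783 and 0.8. Without span classes, the share of positions from the TGF-β1 table was 59.3% over all genes and 52.8% in the members. The share in each class of all genes was then applied to the members' totals. By this calculation 59.2 of their 106 positions would be from that table, and 56 were. By role, the calculation gave 5.30 of 10 for the exportins, where 1 was listed, and 7.58 of 12 for the RAN cycle, where 10 were listed. Other groups lay closer to it, with 23.2 of 41 for the importin β family (25 listed) and 3.74 of 7 for importin α (4). It gave 4.88 of 8 for the Y complex (3), 4.58 of 10 for the inner ring (5) and 1.81 of 4 for the membrane group (2). For the channel it gave 4.57 of 8 (4), for the filaments 1.20 of 2 (1) and for the basket 1.60 of 3 (0). The calculation was chosen after the values were seen. Transcript levels and depth are not given. Their part in these counts, and that of gene span, was not tested.

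**Figure D5:**
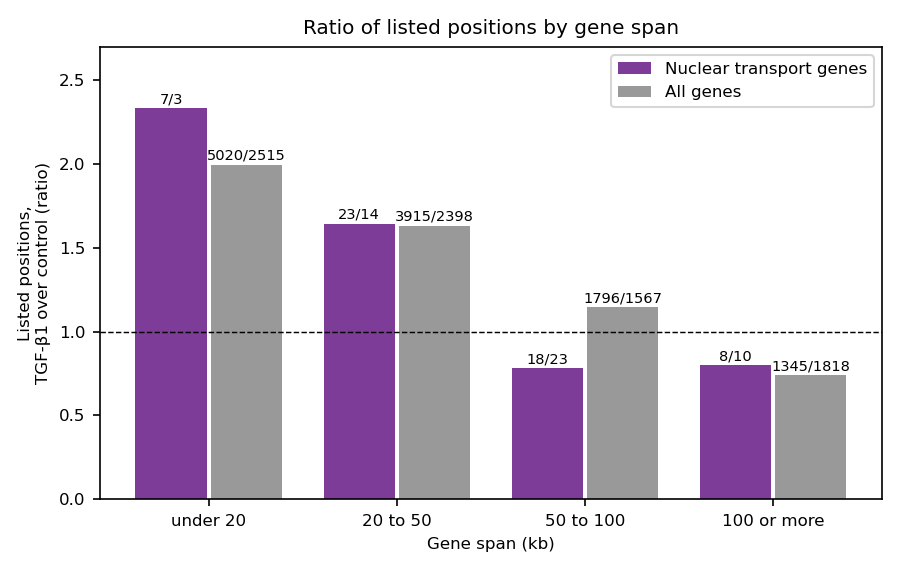
Ratio of listed positions, TGF-β1 over control (y axis), in 4 classes of gene span (x axis, kb) for nuclear transport genes (purple) and all genes (grey), with the numbers of positions above each bar. Both are above 1 in the classes under 50 kb and below 1 from 100 kb, and from 50 to 100 kb they lie at 0.783 and 1.15.

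Genes of the same pathway outside the naming rule were taken from a list of 34. Of these 21 were listed, 9 with more, 8 with fewer and 4 with equal numbers, and they had 37 positions after TGF-β1 and 29 in control, a ratio of 1.28. The same background applies, 51.2% of all genes with more, 35.3% with fewer and a ratio of 1.46. RANBP1, which works with RANGAP1 in RAN hydrolysis, had 5 positions after TGF-β1 and 3 in control, and RCC1, the exchange factor of RAN, had 3 after TGF-β1 and 1 in control. RANBP3, a cofactor of XPO1, had 1 position after TGF-β1 and 2 in control, and NUTF2, which returns RAN to the nucleus, had 2 in control only. SEC13, a Y complex member also found in vesicle coats, had 6 positions after TGF-β1 and 2 in control. The messenger RNA export factors ALYREF and NXF1 had 5 and 3 positions after TGF-β1, against 2 each in control. Other genes of messenger RNA export went both ways. DDX19A had 1 position after TGF-β1 and 3 in control, and THOC1 and THOC5 had 1 each in control only. THOC7 and MCM3AP had 2 each after TGF-β1 only, and RAE1 had 2 after TGF-β1 and 1 in control. THOC2 and DDX39B had equal numbers. SNUPN, the import adaptor of spliceosomal RNPs, had 2 in control only, and HIKESHI and SENP1 had 1 each in control only. GLE1, of the cytoplasmic filaments, had 2 after TGF-β1 only. CSE1L, the exportin of importin α, had none in either table. The 34-gene list had 6 shared positions, of which 5 had the higher value after TGF-β1 (background 78.4%).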

How the data were processed

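Polyadenylated RNA of LX-2 cells was sequenced after borohydride treatment in 2 TGF-β1 and 2 control libraries, grouped by title. The submitters' processing notes name STAR 2.7.6a, fastp 0.23.1, featureCounts and hg38 without their roles. The position caller, its limits and the pooling of libraries were not given in the sources used here. Per the file headers, each line of the deposited tables gives a position, its strand, the difference as a fraction, a p-value, gene, transcript and segment. The deposited fraction is at least 0.01 and the deposited p-value is below 0.05, and what is subtracted and whether p was adjusted are not stated. Depth is unknown, so only listed positions could be used and no precision per value can be given.

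Lines were reduced to 1 per position and gene with pandas 2.3.3 (Python 3.11.15), fractions were multiplied to percent, and positions were matched on chromosome, base and strand. Shares have Wilson intervals (scipy 1.17.1). The summaries were tested on simulated tables. There was no replicate value, so no test was made. Every listed member is named with its counts. Values were given for shared positions, those of 10% or more and the members with most positions or the largest change in number; values of the remaining members were added for completeness. The members, role groups, pathway list, marker lists and alternatives were chosen with earlier results of these data known.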

Additional observations from a re-analysis of the deposited data

How the results depend on the processing

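The alternatives were stricter limits on the p-value or the mismatch difference, equal list lengths, coding positions alone, and leaving out positions, genes or gene copies; leaving out NUP153-AS1 was chosen after seeing the data. Of 100 recomputed values 85 stayed within 1.5 times a count, or inside the interval of a share, ratio or median. That number includes alternatives under which little could move. Without NUP153-AS1 the members kept 55 positions after TGF-β1 and 50 in control, and without near-identical copies 52 and 50. The ratio of member positions, 1.12 as reported, turned to 0.7 with the TGF-β1 list shortened (all genes 1.003) and to 0.923 with coding positions only (all genes 1.49), and lay between 1.02 and 1.30 otherwise. Genes with more positions numbered 9 with the shortened list, and genes with fewer, 18 as reported, numbered 12 at p below 0.01, 11 at p below 0.001 and 8 at a mismatch difference of at least 5%, below the 14, 13 and 14 genes with more at those limits. Shared positions numbered 5 at p below 0.01, 3 at p below 0.001, 6 at a difference of at least 5% and 6 with the shortened list, of which 4 and 3 were higher after TGF-β1 at the p limits. Positions of 10% or more after TGF-β1 numbered 6 in coding sequence. At a limit of 20% there were 3 after TGF-β1 and 1 in control. The coding share in control was 90% at a difference of at least 5%. Beyond the fewer positions each alternative keeps, the cause was not tested. No paired analysis was possible because each table holds 1 value per position for both libraries of its group, and for the same reason no library could be left out.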
